A study of Mus musculus with 16 samples.

Results

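The comparison described here is the change in visceral fat macrophages when Sucnr1 is deleted from myeloid cells. Its members are 8 of the 16 arrays of the series: 4 labelled KO-LysM VAT NCD and 4 labelled WT VAT NCD, each hybridised with RNA from a separate pool. They were chosen by label alone, and every change is given as knockout (KO) minus wild type (WT). The design names Sucnr1 flox/flox mice, taken here as those labelled WT, and LysM-Sucnr1-/- mice, labelled KO-LysM. In such mice Cre recombinase under the lysozyme M promoter cuts the floxed alleles, and that promoter is active in monocytes, macrophages and neutrophils, not in fat macrophages alone. Whether the WT mice carried Cre is not given in the sources used here. All mice were 19 to 21 weeks old. VAT is visceral and SAT subcutaneous adipose tissue, and the letters NCD, shared by all groups, are not spelled out in the labels. The titles call the WT samples untreated and the KO samples treated with KO-LysM. Fat was digested with collagenase, red blood cells were lysed and cells were taken on CD11b beads, although the protocol then calls them F4/80+. RNA of 300000 cells was amplified for 24 cycles. Pools 1 and 2 of each group belong to day 1 and pools 3 and 4 to day 2. The labels do not say how many mice made a pool or whether pools shared mice, so p-values measure the spread between these pools.

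SUCNR1 is a G protein-coupled receptor on the cell surface that binds succinate, an intermediate of the citric acid cycle that cells release under stress. In macrophages succinate can also act inside the cell, where its accumulation stabilises the transcription factor HIF-1alpha. Macrophages of fat clear lipid and dying adipocytes, present antigen, and range from inflammatory (classical) to tissue-repairing (alternative) states. The series asks how SUCNR1 signalling bears on alternative activation.

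Values are log2 intensities summarised by RMA, so a difference of 1 is a doubling. One probe set stood for each of 17097 genes. Array background was placed at 4.78, the 95th percentile of the mean values of 41 olfactory receptor genes. Where a group's mean in VAT lay under that level, a fold between the VAT groups is given only as a bound, taken against background. Fitted log2 differences that involve a group under background do not measure a size. A gene passed when its adjusted p (limma, Benjamini-Hochberg over all 17097 genes, two-sided) was under 0.05, and errors of changes are standard errors of the fit. Groups without overlap were common: every KO VAT pool lay above every WT VAT pool in 6.48% of all genes, and under every WT VAT pool in 5.64%.

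Sucnr1 itself could not check the genotype. Its probe set read 3.61, 3.61, 3.51 and 3.35 in WT VAT pools 1 to 4 and 3.59, 3.58, 3.53 and 3.41 in the KO VAT pools. All 8 values lay under background, and the deleted part relative to the probe is not given in the sources used here. Lyz2, which encodes lysozyme M and lends Cre its promoter, read 10.52, 10.71, 10.39 and 10.68 in WT VAT and 9.72, 9.71, 10.36 and 10.19 in KO VAT. The groups nearly touched (10.39 and 10.36) without overlap, as 5.64% of all genes had KO VAT wholly under WT VAT. The change was -0.58 ± 0.14 and passed (adjusted p = 0.0156). That call ended on day 2 alone (-0.26), with array spread in the model (-0.49) and when WT VAT pool 2 (-0.48) or either day 1 pool of KO VAT (-0.54 for pool 1, -0.53 for pool 2) was left out. The call also ended when the VAT arrays were fitted alone. In SAT Lyz2 read 10.86 to 11.36 in WT and 10.01 to 10.75 in KO. The part of the Cre allele in the Lyz2 values was not tested.

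Macrophage genes were read well above background. The mean level of 18 identity genes ran from 7.44 to 8.56 in WT VAT and from 7.42 to 8.11 in KO VAT. That of 20 stromal progenitor genes ran from 6.98 to 7.58 and from 7.25 to 7.42, and that of 15 collagens from 7.0 to 7.81 and from 7.67 to 7.78. How pure the cells were was not tested. Cd68, a lysosomal glycoprotein of macrophages, lay at 10.85 to 11.48 in WT VAT and 10.45 to 11.07 in KO VAT. Adgre1, which encodes F4/80, lay between 7.65 and 8.84 over the 8 pools, and Csf1r, the receptor for the macrophage growth factor CSF1, between 7.63 and 8.61. Itgam, which encodes the CD11b used for selection, lay at 5.80 to 7.08. Levels of different probe sets are not on a common scale, so these values do not rank the genes. In bulk samples of this kind, fewer cells of a type and less RNA per cell cannot be told apart.

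The arrays differed in spread. The interquartile range of the probe set values was 2.01, 2.15, 2.50 and 2.54 in WT VAT pools 1 to 4, and 2.47, 2.36, 2.62 and 2.51 in KO VAT. The KO minus WT difference was 0.19 (exact permutation test, two-sided, p = 0.286; the smallest p that 4 against 4 allows is 0.0286). It was 0.33 on day 1 and 0.05 on day 2, so WT VAT pools 1 and 2 were the arrays apart. Values with this range as a term in the model, and values on each day alone, are therefore given where they end a call.

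The labelled depots also need care. For 20 of the 30 genes of largest change named below, the KO VAT mean was nearer to WT SAT than to WT VAT, while the KO SAT mean was nearer to WT VAT than to WT SAT. The same held for 7.86% of all genes, 10.7% of those that passed and 28.7% of those that passed with at least a 2-fold change. Among the 30 it held for 13 of the 15 rises and 7 of the 15 falls. Picking genes by a large distance between KO VAT and WT VAT favours the first part of this rule. The second part alone, on KO SAT, held for 67.9% of all genes. Akr1c18, the most changed gene, averaged 4.91 in WT VAT and 5.26 in KO SAT against 10.18 in KO VAT and 8.70 in WT SAT. All arrays are called by their labels here, and levels in SAT are given beside the results they touch. What part depot, dissection or labelling has in these values was not tested.

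Between KO VAT and WT VAT, in the fit on all 16 arrays, 2724 of 17097 genes passed, or 15.9%: 1740 rose in the knockout (10.2% of all genes) and 984 fell (5.76%). The unadjusted p was under 0.05 for 6112 genes, or 35.7%. Among those that passed, 239 rose and 36 fell by at least 2-fold. All 2724 had the same sign on both days, which passing itself favours, since the fitted change is the mean of the changes on the 2 days. Of the 2724, 2176 passed on day 1 alone and 281 on day 2 alone, each with 2 pools a group, and 987 passed with array spread as a term. The balance of rises and falls depended on the scaling: 1579 of 3085 calls were rises after quantile normalization, 1798 of 2332 after centring on medians, and 781 of 1849 with the spread term. Without KO VAT pool 1 the count was 1115, without KO VAT pool 3 it was 1302, without KO VAT pool 2 it was 1467, and without WT VAT pools 2 and 1, each left out alone, 1507 and 1541. Over all 17097 genes, 781 rose and 1068 fell with the spread term, 1579 and 1506 after quantile normalization, and 232 and 99 on day 2 alone. Counts of list members under these settings are to be read against these numbers, not against the shares of the main fit.

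**Figure D1:**
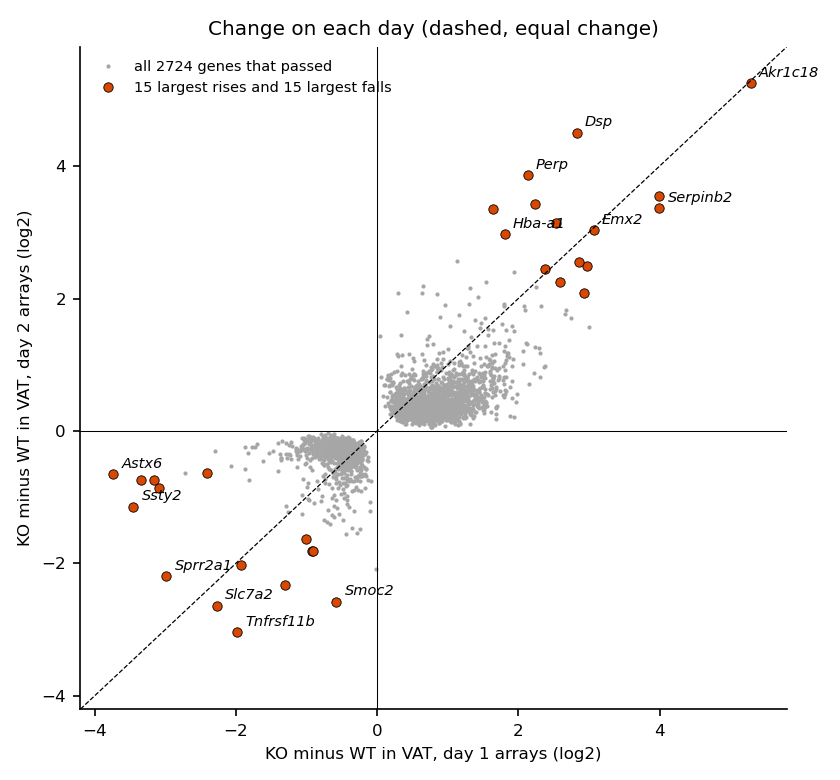
Change between KO and WT in VAT computed from the day 1 arrays (x axis, log2) and from the day 2 arrays (y axis, log2) for the 2724 genes that passed (grey) and the 15 largest rises and 15 largest falls (orange); the dashed line marks equal change. Akr1c18 and Emx2 lie near the line, at 5.29 and 5.25 and at 3.07 and 3.03, while Astx6 and Ssty2 fell by 3.73 and 3.45 on day 1 against 0.65 and 1.14 on day 2.

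The largest rise was that of Akr1c18, an aldo-keto reductase that inactivates progesterone. WT VAT pools read 4.96, 4.75, 4.79 and 5.14 and KO VAT pools 10.31, 9.99, 10.16 and 10.27, a fitted change of 5.27 ± 0.15 (adjusted p = 1.55e-11). The WT pools stood at about background, which leaves the size of the change open at the low end, and every KO pool far above it. Thbs2, a matricellular thrombospondin, read 5.68, 7.29, 7.33 and 6.22 in WT and 10.54, 10.42, 10.42 and 10.24 in KO (3.77 ± 0.39, adjusted p = 4.67e-05). Serpinb2, the inhibitor of plasminogen activators known as PAI-2, read 4.23, 4.99, 6.46 and 4.40 in WT and 8.84, 8.38, 8.89 and 8.69 in KO (3.68 ± 0.46, adjusted p = 0.000193). For both genes the WT pools were scattered and the KO pools tightly grouped, without overlap (6.48% of all genes had KO VAT wholly above WT VAT). Emx2, a homeobox factor of urogenital and brain development, read 5.45, 5.45, 5.59 and 5.29 against 8.47, 8.56, 8.67 and 8.28 (3.05 ± 0.12, adjusted p = 1.08e-09).

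Further large rises came from a mixed set of genes. Adh7, an alcohol dehydrogenase that oxidises retinol, rose by 2.71 ± 0.15 from a WT range of 6.94 to 7.60. C4b, a complement component, rose by 2.51 ± 0.23, with KO pools between 9.74 and 9.91 and WT pools between 6.66 and 7.98. Sfrp2, a secreted modulator of Wnt signalling, rose by 2.42 ± 0.24, and Kif21a, a kinesin motor, by 2.42 ± 0.21; the latter change was 0.91 with the mean of its 3 probe sets. Hbb-b2 and Hba-a1, which encode globin chains of haemoglobin, rose by 2.49 ± 0.46 and 2.39 ± 0.48. Hba-a1 in WT VAT was 9.94 in pool 1 and 7.82 to 7.94 in the others, against 10.56 to 10.98 in KO, and it did not pass on day 1 alone (1.81).

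5 of the 15 largest rises started from WT means under background. Dsp, the desmosome protein desmoplakin, read 4.85, 4.77, 4.27 and 4.44 in WT and 7.62, 7.65, 9.27 and 8.46 in KO, at least 11.1-fold higher (adjusted p = 1.71e-05). Perp, another desmosome gene, was at least 5.66-fold higher, with KO pools from 5.88 to 8.47 (adjusted p = 0.000256). Prg4, the joint lubricant lubricin, was at least 6.20-fold higher (adjusted p = 6.69e-06). Prkg2, a cyclic GMP-dependent kinase, was at least 5.68-fold higher (adjusted p = 2.92e-08). Idi1, an isomerase of cholesterol synthesis, read 4.51, 4.32, 4.19 and 4.20 in WT and 6.75, 6.56, 7.69 and 7.55 in KO, at least 5.14-fold higher (adjusted p = 5.82e-07). In all 5 genes, picked for large rises, the lowest KO pool lay above the highest WT pool, as it did in 6.48% of all genes.

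Among the falls, Slc7a2, a transporter that brings arginine into macrophages, read 8.32, 8.52, 9.60 and 9.15 in WT and 6.11, 6.20, 6.75 and 6.72 in KO, a change of -2.45 ± 0.17 (adjusted p = 9.66e-07). All 4 probe sets of the gene passed in the same direction. Tnfrsf11b, the decoy receptor osteoprotegerin, read 6.70, 7.47, 8.93 and 7.76 in WT and 5.20, 5.01, 5.17 and 5.44 in KO (-2.51 ± 0.29, adjusted p = 0.000124), and -1.48 with the mean of its probe sets. Sprr2a1, a small proline-rich protein of epithelia, fell by 2.59 ± 0.42 (adjusted p = 0.00152); WT pools 1 to 3 read 8.78 to 9.13 and pool 4 only 6.80, and the gene did not pass on day 2 alone (-2.20).

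5 further genes that fell encode matrix and secreted proteins. Ltbp4, which binds latent TGF-beta, changed by -1.81 ± 0.24, and Fbln5, an organiser of elastic fibres, by -1.36 ± 0.25. Smoc2, a calcium-binding matrix protein, changed by -1.58 ± 0.33, with -0.58 on day 1, where it did not pass, and -2.58 on day 2. Il11, a cytokine of stromal cells, changed by -1.36 ± 0.19. Cxcl12, the chemokine that retains leukocytes through CXCR4, read 7.85, 8.22, 9.51 and 8.61 in WT and 7.10, 6.95, 7.44 and 7.44 in KO, a change of -1.32 ± 0.23 (adjusted p = 0.00237). Over all genes 5.64% had every KO VAT pool under every WT VAT pool, as did these 5 genes, which were picked for large falls. In each of them WT VAT and KO SAT were high and WT SAT low, as for Cxcl12 at 8.78 in KO SAT and 5.77 in WT SAT.

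The other falls among the 15 were less firm. Lcn5, a lipocalin of the epididymis, read 6.89, 5.46, 5.58 and 6.60 in WT VAT and 4.04 to 4.32 in KO VAT, at least 2.55-fold lower (adjusted p = 0.0354); its call ended without any 1 of the VAT arrays other than WT pools 3 and 4 (-2.14 to -1.59). 6 members of multicopy families, Ssty1, Ssty2, Astx6, Orly, LOC664787 and Vmn1r148, had high values on WT VAT pools 1 and 2 and lower values on pools 3 and 4. Ssty2 read 9.81, 9.59, 6.89 and 7.40 in WT and 5.56, 6.94, 4.99 and 7.02 in KO, so the groups overlapped. Near-identical copies of such genes can share probes. The call of each of the 6 ended on day 2 alone, with the spread term, and without WT VAT pool 1 or 2 or KO VAT pool 1 or 3; for Ssty2 the change in the fits that ended it was -2.47 to -1.91, and for Orly -1.61 to -1.21, with KO VAT pool 2 ending both as well.

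**Figure D2:**
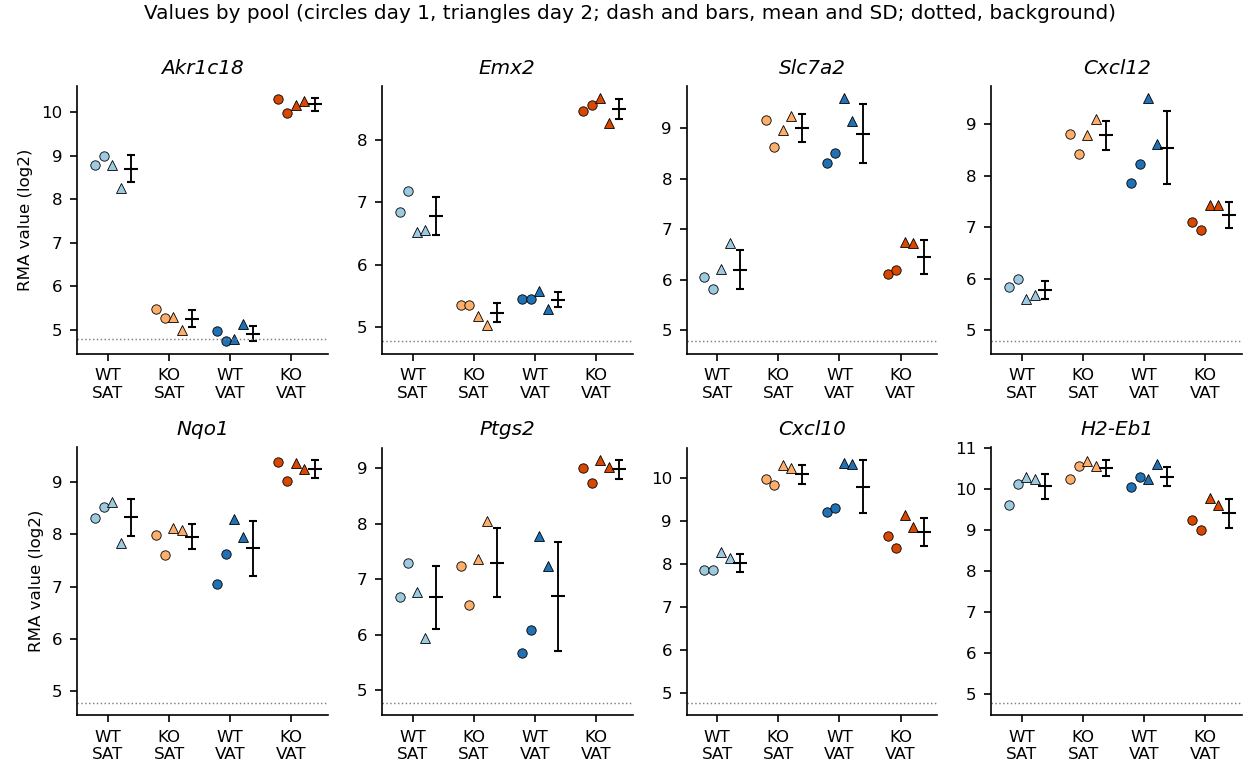
Log2 RMA values of 8 genes (panels, y axes) in each pool of the 4 groups (x axis); circles are day 1, triangles day 2, dashes with bars are means with SD (n = 4), and the dotted line is the background level of 4.78. Akr1c18 and Emx2 are high in KO VAT and WT SAT, Slc7a2 and Cxcl12 are high in WT VAT and KO SAT, and Nqo1 and Ptgs2 are higher in every KO VAT pool than in any pool of the other 3 groups, while H2-Eb1 in KO VAT overlaps with WT SAT alone.

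Of 17 antioxidant genes driven by the transcription factor Nrf2, 8 rose and 0 fell, or 47.1% against 10.2% of all genes (10 and 0 at an unadjusted p under 0.05), and the median change was 0.32 against -0.05 over all genes. With the spread term 5 rose and 1 fell, with a median of 0.13, against 781 and 1068 of all 17097 genes. On day 2 alone 2 rose, with a median of 0.15, against 232 of all 17097 genes. Nqo1, a quinone reductase, read 7.05, 7.62, 8.30 and 7.95 in WT and 9.39, 9.01, 9.37 and 9.24 in KO (1.52 ± 0.21, adjusted p = 0.000444). Gsr, glutathione reductase, read 8.88, 9.98, 10.28 and 10.07 against 10.83, 10.63, 10.91 and 10.85 (1.00 ± 0.19, adjusted p = 0.00398). Gclc, the catalytic subunit of the first step of glutathione synthesis, changed by 0.73 ± 0.13, Txnrd1, thioredoxin reductase, by 0.57 ± 0.12, and Srxn1, sulfiredoxin, by 0.56 ± 0.12. The groups did not overlap in these 5 (6.48% of all genes had KO VAT wholly above WT VAT), and WT VAT pool 1 was the lowest array in each. Gclc, Txnrd1 and Srxn1 did not pass on day 2 alone (0.38, 0.35 and 0.31). The other 3, Nfe2l2 (which encodes Nrf2, 0.81), Slc7a11 (the cystine transporter, 1.16) and Pgd (0.26), passed with less margin. Nfe2l2 and Slc7a11 lost their calls without any 1 VAT array other than WT pools 3 and 4 (0.55 to 0.85 and 0.72 to 1.22), and Pgd without WT pool 1, KO pool 1 or KO pool 2 (0.20 to 0.25).

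Promoter sequence was set beside 3 of the groups described here, each known to be driven by a factor with a defined binding motif. RefSeq windows of build GRCm38.p6, 250 bases before a start, were searched on both strands for the antioxidant response element TGACNNNGC, the hypoxia response element ACGTG and the interferon-stimulated response element. The shares of all 32851 windows with a match were 10.2%, 16.6% and 2.98%. Of the listed genes with a window, whether or not they passed, 4 of 14 antioxidant, 13 of 18 hypoxia and 7 of 18 interferon genes had a match. A gene with several windows was counted if any of them matched, so these counts and the shares per window are not on the same footing. Of the 8 antioxidant genes that rose, 6 had a window and 2 a match, Nfe2l2 and Txnrd1. Of the 6 hypoxia genes that rose, 5 had a window and 3 a match, Hif1a, Egln3 and Ddit4, no more than in the list as a whole; Pfkfb3, which fell, had one too. All 3 interferon genes that fell had a window and 1 a match, Ifit3. The windows of Txnrd1, Egln3 and Cxcl10 are printed 5′ to 3′ on the gene's strand as examples of genes that rose (Txnrd1, Egln3) and fell (Cxcl10, counted below with classical activation), with the match in capitals (for Txnrd1 it is on the opposite strand). They lie at chr10:82858956-82859205 (plus strand; 1 of 3 windows of the gene), chr12:54203875-54204124 (minus) and chr5:92348890-92349139 (minus). A match describes the letters and is not a bound site.
Txnrd1: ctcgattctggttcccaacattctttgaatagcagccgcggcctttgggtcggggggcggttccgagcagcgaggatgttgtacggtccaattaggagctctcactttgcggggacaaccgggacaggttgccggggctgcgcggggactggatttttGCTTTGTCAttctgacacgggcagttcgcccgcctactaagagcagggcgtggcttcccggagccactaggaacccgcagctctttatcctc
Egln3: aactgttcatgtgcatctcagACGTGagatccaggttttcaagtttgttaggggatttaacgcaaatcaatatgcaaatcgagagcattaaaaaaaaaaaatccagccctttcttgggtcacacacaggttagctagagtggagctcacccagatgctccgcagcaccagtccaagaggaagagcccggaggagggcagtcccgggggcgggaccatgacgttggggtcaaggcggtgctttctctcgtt
Cxcl10: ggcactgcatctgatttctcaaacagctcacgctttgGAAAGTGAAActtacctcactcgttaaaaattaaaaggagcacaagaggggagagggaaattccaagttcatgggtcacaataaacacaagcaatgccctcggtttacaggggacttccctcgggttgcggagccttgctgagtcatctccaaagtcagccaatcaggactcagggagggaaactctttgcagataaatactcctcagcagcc

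Of 21 hypoxia-responsive genes 6 rose (28.6%, against 10.2% of all genes) and 1 fell (4.76% against 5.76%), with a median of 0.34. The median was 0.06 with the spread term, 0.12 after quantile normalization and 0.18 on day 2. Hif1a, the oxygen-regulated transcription factor subunit, read 8.18, 9.0, 9.19 and 9.21 in WT and 9.80, 9.80, 10.13 and 10.03 in KO (1.04 ± 0.14, adjusted p = 0.000397). Egln3, a prolyl hydroxylase that marks HIF for breakdown and whose window is printed above, read 4.44, 5.04, 5.20 and 5.09 against 6.59, 6.47, 7.13 and 7.02 (1.86 ± 0.16, adjusted p = 8.85e-06). Both passed on each day alone and without each VAT array. Adm, the vasodilator adrenomedullin, changed by 1.15 ± 0.20 and Higd1a, a mitochondrial survival protein, by 0.69 ± 0.10; neither passed on day 2 alone (0.90 and 0.54). Pfkfb3, an activator of glycolysis, was the member that fell (-0.56 ± 0.13), and it did not pass with the mean of its probe sets (-0.31). Ndrg1 (0.50) and Ddit4 (0.94) passed with all arrays in, but not without most single ones: Ddit4 held only without WT pool 3 or 4 and Ndrg1 only without WT pool 2 or 4 (0.33 to 0.53 for Ndrg1 in the others). The changes of Ddit4 in those fits were 0.64 to 1.00.

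Of 16 chaperones of the heat shock response 6 rose (37.5%, against 10.2% of all genes) and 0 fell (11 and 0 at an unadjusted p under 0.05), with a median of 0.40. With the spread term 2 rose and 2 fell, with a median of 0.12, and on day 2 alone 1 rose, with a median of 0.19. Dnajb4, a partner of Hsp70, read 7.70, 8.23, 8.99 and 8.82 in WT and 10.13, 10.04, 10.27 and 10.16 in KO (1.71 ± 0.20, adjusted p = 0.000147), or 0.97 with the mean of its probe sets. Hsph1, an Hsp110, changed by 0.63 ± 0.14 and did not pass on day 2 alone (0.37). Hspb8, Dnaja1, Dnajb1 and Chordc1 rose by 0.43 to 0.78 but lost their calls with the spread term and without KO VAT pool 1 (0.40 to 0.71), Dnaja1 and Chordc1 also without KO VAT pool 3 (0.52 and 0.44), Chordc1 without KO VAT pool 2 (0.43), and Hspb8 without any 1 VAT array other than WT pools 3 and 4. In the unfolded protein response, 6 of 24 rose (25.0%, against 10.2% of all genes) and 2 fell (8.33%, against 5.76%), with a median of 0.07. The balance turned with the scaling: 2 rose and 9 fell with the spread term (median -0.22), and 5 rose and 7 fell after quantile normalization (median -0.17, as on day 2 alone). Creld2, a chaperone of the endoplasmic reticulum, read 9.66, 10.15, 10.58 and 10.52 in WT and 11.34 to 11.39 in KO (1.14 ± 0.14, adjusted p = 0.000224). Trib3, a pseudokinase induced by the same stress, went the other way, from 6.87, 7.19, 7.72 and 7.69 to between 6.42 and 6.52 (-0.90 ± 0.15, adjusted p = 0.00171). Jun, a subunit of the AP-1 factor, read 6.14, 6.43, 6.95 and 7.31 against 7.93, 7.82, 8.25 and 8.19 (1.34 ± 0.17, adjusted p = 0.000197). Of the 25 immediate early genes, of which Jun is one, 6 rose (24.0%, against 10.2% of all genes) and 1 fell, with a median of 0.25; with the spread term 1 rose and 3 fell, with a median of 0.04.

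The list of retinoid enzymes includes Akr1c18, whose change was known when the list was made. Apart from Akr1c18, 4 of the other 13 rose and 1 fell, while of all genes 10.2% rose and 5.76% fell. Besides Adh7, Adh1, a cytosolic retinol and alcohol dehydrogenase, read 5.84, 6.34, 6.75 and 7.0 in WT and 7.76, 7.55, 8.23 and 8.40 in KO (1.51 ± 0.19, adjusted p = 0.000196). Aldh1a1, which makes retinoic acid, was under background in WT (4.21 to 4.43) and at 5.36 to 5.76 in KO, at least 1.74-fold higher (adjusted p = 1.18e-05). Cyp26b1, which breaks retinoic acid down, changed by 1.31 ± 0.15 (adjusted p = 0.000113). Aldh1a2, the retinoic acid-forming enzyme of mesothelium and stroma, went down by 0.93 ± 0.21 on the log2 scale (adjusted p = 0.0112), and passed on neither day alone. In SAT Adh1 changed by 0.23, Aldh1a1 was under background in both groups, and Adh7 had the opposite change of -3.65.

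Lipid synthesis genes rose in part. Of 13 fatty acid synthesis genes 4 rose (30.8%, against 10.2% of all genes) and 0 fell (6 and 0 at an unadjusted p under 0.05), with a median of 0.31. With the spread term 3 rose and 2 fell, with a median of 0.08, and the median was 0.06 after quantile normalization. Scd1, the desaturase that makes monounsaturated fatty acids, read 5.87, 7.24, 7.55 and 8.23 in WT and 9.16, 9.29, 9.81 and 9.64 in KO (2.25 ± 0.28, adjusted p = 0.000191). Elovl6, an elongase of saturated chains, read 6.06, 6.02, 6.78 and 6.78 against 7.98, 7.79, 8.06 and 7.86 (1.51 ± 0.19, adjusted p = 0.000224). Both passed on each day alone. Elovl5 changed by 0.65 ± 0.12 (0.51 and not passing on day 2), and Acsl3 by 0.53 ± 0.14, lost without WT VAT pool 2 (0.50) or KO VAT pool 1 (0.46). Of 19 cholesterol synthesis genes 5 rose (26.3%, against 10.2% of all genes) and 0 fell (7 and 1 at an unadjusted p under 0.05), with a median of 0.08. After Idi1 the firmest were Cyp51, lanosterol demethylase (0.73 ± 0.15), and Insig1, a sensor that restrains the pathway (0.71 ± 0.15), neither of which passed on day 2 alone (0.36 and 0.67). Cyp51 was 0.25 with the mean of its probe sets. In fatty acid oxidation 5 of 16 rose (31.2%, against 10.2% of all genes) and 1 fell (6.25%, near the 5.76% of all genes). The latter was Cpt1b, the muscle-type carnitine palmitoyltransferase (-0.48 ± 0.10). The median of that list was 0.34. With the spread term it was 0.05, with 2 rises and 2 falls, and the 5 rises and 1 fall did not pass on day 2 alone.

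**Figure D3:**
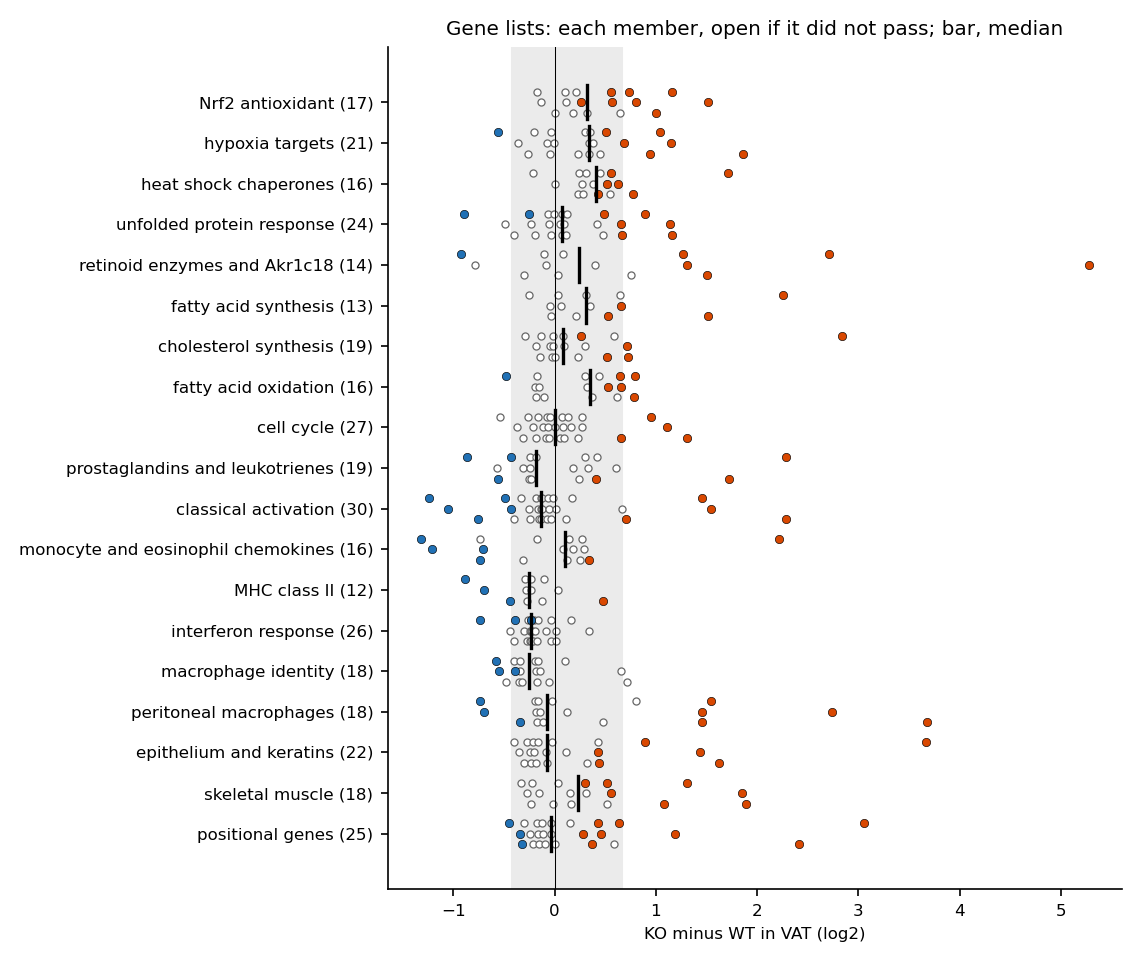
KO minus WT change in VAT (x axis, log2) of every measured member of 19 gene lists (rows, number measured in parentheses); filled points passed (orange rose, blue fell), open points did not, black bars are medians and the grey band holds the middle 90% of all genes. The antioxidant, hypoxia, heat shock and fatty acid lists have medians between 0.31 and 0.40, and the macrophage identity, interferon and MHC class II lists between -0.26 and -0.23.

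In the list of classical activation 4 of 30 rose (13.3%, near the 10.2% of all genes) and 5 fell (16.7%, against 5.76%), with a median of -0.13. With the spread term 4 rose and 8 fell. Ptgs2, the inducible cyclooxygenase, read 5.68, 6.08, 7.78 and 7.24 in WT and 9.01, 8.73, 9.15 and 9.02 in KO (2.28 ± 0.38, adjusted p = 0.00164), and 1.38 with the spread term. Pla2g4a, the phospholipase that frees arachidonic acid for it, read 5.53, 6.01, 6.62 and 6.50 against 8.02, 7.74, 8.00 and 7.79 (1.72 ± 0.21, adjusted p = 0.000191). Nfkbiz, a nuclear regulator of NF-kB targets, changed by 1.54 ± 0.26 (1.01 on day 2 alone, where it did not pass), and Saa3, an acute-phase protein, by 1.46 ± 0.32 (0.85 on day 1 alone, where it did not pass). Cxcl10, the interferon-induced ligand of CXCR3 whose window is printed above, read 9.22, 9.32, 10.36 and 10.34 in WT and 8.66, 8.37, 9.14 and 8.86 in KO (-1.05 ± 0.14, adjusted p = 0.000294). Ccl5, a T cell attractant, read 7.65, 8.02, 8.74 and 9.09 against 6.52, 6.63, 7.80 and 7.57 (-1.24 ± 0.17, adjusted p = 0.000434); its groups overlapped across days but not within a day. Cd86, a costimulatory ligand, changed by -0.76 ± 0.18, and its call ended on either day alone, without KO VAT pool 2 (-0.67) and with the mean of its probe sets (-0.37).

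Of 16 chemokines for monocytes and eosinophils, 4 fell (25.0%, against 5.76% of all genes) and 2 rose (12.5%, near the 10.2% of all genes), Cxcl12 above among the falls. Cx3cl1, or fractalkine, read 7.57, 7.48, 7.40 and 7.53 in WT and 6.10, 6.36, 6.37 and 6.29 in KO (-1.22 ± 0.10, adjusted p = 8.85e-06), so both groups were tight and far apart. Cxcl16, a scavenger receptor and chemokine, changed by -0.74 ± 0.09 (adjusted p = 0.000193). Ccl2, the main attractant of monocytes, read 10.41, 10.70, 11.40 and 11.28 against 10.26, 10.01, 10.37 and 10.33 (-0.71 ± 0.15, adjusted p = 0.00672), but did not pass on day 1 alone (-0.42). Ccl8, another monocyte attractant, went up from 6.21, 6.48, 6.46 and 7.49 to 8.62, 8.57, 9.27 and 9.03 (2.21 ± 0.20, adjusted p = 1.23e-05). Its SAT means were 9.60 in WT and 6.75 in KO. Cxcl2 rose by 0.34 ± 0.10, a call lost without any 1 VAT array other than WT pools 3 and 4 and KO pool 4 (0.25 to 0.34).

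Antigen presentation genes fell in part. Of 12 genes of MHC class II, 3 fell (25.0%, against 5.76% of all genes) and 1 rose (8.33%, near the 10.2% of all genes), with a median of -0.26. H2-Eb1, a class II beta chain, read 10.06, 10.31, 10.24 and 10.61 in WT and 9.26, 9.0, 9.79 and 9.61 in KO (-0.89 ± 0.13, adjusted p = 0.000798). Cd74, the invariant chain, changed by -0.69 ± 0.13 (adjusted p = 0.00357) and did not pass on day 2 alone (-0.65). H2-Ab1 changed by -0.44 ± 0.11, lost without WT VAT pool 2 (-0.37) or KO VAT pool 2 (-0.40). Rfx5, a factor that switches class II genes on, rose by 0.48 ± 0.14, lost with the spread term and without any 1 VAT array other than WT pools 3 and 4 and KO pool 4 (0.36 to 0.49). Of 17 dendritic cell markers 4 fell (23.5%, against 5.76% of all genes) and 0 rose (6 and 0 at an unadjusted p under 0.05). Fscn1, an actin bundler of mature dendritic cells, changed by -0.73 ± 0.15 and Batf3, a factor for cross-presenting cells, was at least 1.44-fold lower, the latter not passing on day 2 alone. The mean level of the 17 ran from 5.74 to 5.98 in WT VAT and from 5.56 to 5.83 in KO VAT, and its part in the class II values was not tested.

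Interferon response genes had a median of -0.23 over 26 members, with 3 falls (11.5%, against 5.76% of all genes) and 0 rises (8 and 1 at an unadjusted p under 0.05). The median was 0.00869 on day 1 and -0.43 on day 2, and 17 members fell with the spread term, against 1068 of all 17097 genes. Cmpk2, a mitochondrial nucleotide kinase, changed by -0.74 ± 0.16 (adjusted p = 0.00953), but not on day 1 alone (-0.46) or with the mean of its probe sets (-0.44). Irf1, counted with classical activation, changed by -0.44 ± 0.10 and passed on neither day alone (-0.35 and -0.52). Ifit3 (-0.24) and Irf7 (-0.39) kept their calls only with all arrays or without WT VAT pool 1 (-0.25 to -0.20 and -0.44 to -0.31 in the other fits).

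Genes of macrophage identity had a median of -0.26 over 18 members, with 3 falls (16.7%, against 5.76% of all genes) and 0 rises (7 and 2 at an unadjusted p under 0.05). The median stayed negative on both days, with the spread term (-0.49) and after quantile normalization (-0.43). Lyz2, whose promoter drives Cre, is among the 3 falls, and the part of the Cre allele in it was not tested. Cd68 changed by -0.39 ± 0.10 (adjusted p = 0.021) and Fcgr1, the high-affinity IgG receptor, by -0.55 ± 0.14 (adjusted p = 0.0209). Both calls ended when WT VAT pool 2 (-0.36 and -0.49) or a day 1 pool of KO VAT (-0.40 and -0.55 for pool 1, -0.33 and -0.48 for pool 2) was left out, and after centring on medians (-0.32 and -0.48). They also ended on day 2 alone and when the VAT arrays were fitted alone. Adgre1 (-0.17 ± 0.21), Itgam (-0.18 ± 0.19) and Csf1r (-0.32 ± 0.15) did not pass.

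The hallmark genes of alternative activation did not pass in VAT. Arg1, arginase, read 8.19, 8.51, 8.45 and 9.72 in WT and 8.75, 8.43, 9.13 and 8.90 in KO, a difference of 0.09 ± 0.22 (adjusted p = 0.795). Retnla, a secreted protein induced by IL-4, differed by 0.22 ± 0.14 (adjusted p = 0.264), and Mrc1, the mannose receptor, by 0.66 ± 0.22 (adjusted p = 0.0532). The sign of the difference for Arg1 was negative on day 2, after quantile normalization and with the spread term, and that for Retnla after quantile normalization. Chil3 lay under background in all 8 pools (3.54 to 3.95). In the alternative activation list of 32 genes, 3 rose (9.38%) and 2 fell (6.25%), near the 10.2% and 5.76% of all genes, with a median of -0.04. Beyond Slc7a2, described above, the arginine and polyamine genes held 5 rises of 15 measured (33.3%, against 10.2% of all genes). Among them were Arg2, the mitochondrial arginase (0.60 ± 0.12, but 0.43 and not passing on day 1 alone), and Azin1, an inhibitor of ornithine decarboxylase breakdown (0.91 ± 0.18, but 0.53 and 0.54, not passing, on day 2 alone and with the mean of its probe sets).

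The prostaglandin list held 3 rises and 3 falls of 19 (15.8% each, against 10.2% and 5.76% of all genes). Besides Ptgs2 and Pla2g4a, Ptger4, a receptor for prostaglandin E2, rose by 0.40 ± 0.09, not passing on day 2 alone (0.36) or with the mean of its probe sets (0.18), and Ptgds, a prostaglandin D synthase, fell by 0.56 ± 0.13, not passing with the spread term (-0.43). Of 19 receptors for metabolites and lipid mediators, 6 fell (31.6%, against 5.76% of all genes) and 1 rose (5.26%, against 10.2%), but 10 lay under background in both groups. P2ry1, a receptor for ADP, was at least 1.17-fold lower and passed on neither day alone. Of 27 cell cycle genes 4 rose (14.8%, near the 10.2% of all genes) and 0 fell (6 and 2 at an unadjusted p under 0.05). The 4 were subunits of the MCM helicase, which opens replication origins: Mcm2 (1.31 ± 0.18), Mcm5 (1.11 ± 0.20), Mcm4 (0.95 ± 0.11) and Mcm3 (0.65 ± 0.17). Mcm4 read 5.57, 5.75, 5.68 and 5.94 in WT and 6.57, 6.93, 6.71 and 6.55 in KO and passed on both days alone. Mcm2 and Mcm5 did not pass on day 2 (0.82 and 0.75), and Mcm3 was lost without WT pool 1, WT pool 2 or KO pool 1 (0.52 to 0.57). The median of the 27 was 0.00194. Among iron genes Heph, a ferroxidase that works with the iron exporter, rose from under background (at least 1.03-fold, adjusted p = 0.00014), and Cp, its soluble relative ceruloplasmin, fell by 1.00 ± 0.18 (-1.04 and not passing on day 2 alone).

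Markers of other cells and tissues moved with the knockout too. Of 18 peritoneal macrophage genes 5 rose (27.8%, against 10.2% of all genes) and 3 fell (16.7%, against 5.76%). Serpinb2, Prg4, Saa3, Cxcl13, a B cell attractant (1.45 ± 0.17), and Slpi, a protease inhibitor (1.55 ± 0.16), rose, while Gata6, the factor that defines large peritoneal macrophages, read 5.90, 5.87, 6.25 and 6.56 in WT and 5.39, 5.45, 5.60 and 5.34 in KO (-0.70 ± 0.12, adjusted p = 0.00179). The members that rose and the defining factor thus went opposite ways. The mean level of the list ran from 5.52 to 5.73 in WT VAT and from 5.99 to 6.25 in KO VAT. Bcam and Wt1 also fell, Wt1 under background in both groups; Bcam (-0.74) lost its call with the spread term and without any 1 VAT array other than WT pools 3 and 4 and KO pool 4 (-0.75 to -0.64).

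Of 22 epithelial genes 6 rose (27.3%, against 10.2% of all genes) and 0 fell (6 and 3 at an unadjusted p under 0.05). Krt14, a basal keratin, read 5.00, 4.82, 4.59 and 4.65 in WT and 5.85, 5.89, 6.86 and 6.19 in KO, at least 2.67-fold higher (adjusted p = 0.000191), alongside Dsp above, and Perp outside the list. Of the 22 differences 9 were positive, and the median was -0.08 (-0.19 on day 1). Esr1, the oestrogen receptor, changed by 1.62 ± 0.22. The mean level of the list was 4.88 to 5.24 in WT VAT, 5.29 to 5.55 in KO VAT, 5.15 to 5.21 in WT SAT and 4.99 to 5.32 in KO SAT, so KO VAT overlapped with KO SAT alone. The SAT means of WT and KO were 4.81 and 4.70 for Krt14, 4.44 and 4.55 for Perp and 5.01 and 5.71 for Dsp. The part of epithelial RNA in the values of Dsp and Perp was not tested.

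Of 18 skeletal muscle genes 7 rose (38.9%, against 10.2% of all genes) and 0 fell (7 and 4 at an unadjusted p under 0.05). Atp2a1, the calcium pump of fast fibres, read 5.53, 5.82, 5.67 and 5.82 in WT and 7.24, 7.18, 7.74 and 8.26 in KO (1.89 ± 0.20, adjusted p = 4.28e-05), and Tnnc2, fast troponin C, changed by 1.85 ± 0.30. Pvalb, a calcium buffer of fast fibres, changed by 1.31 ± 0.23 and Acta1, skeletal actin, by 1.08 ± 0.24. The mean level of the list was 4.80 to 5.14 in WT VAT, 5.21 to 5.56 in KO VAT, 4.72 to 4.92 in KO SAT and 6.37 to 6.97 in WT SAT. KO VAT thus stood between WT VAT and WT SAT without overlap. Globin mRNA, given above for Hba-a1 and Hbb-b2, had the same order of SAT means: 10.85 in WT SAT and 9.14 in KO SAT for Hba-a1.

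**Figure D4:**
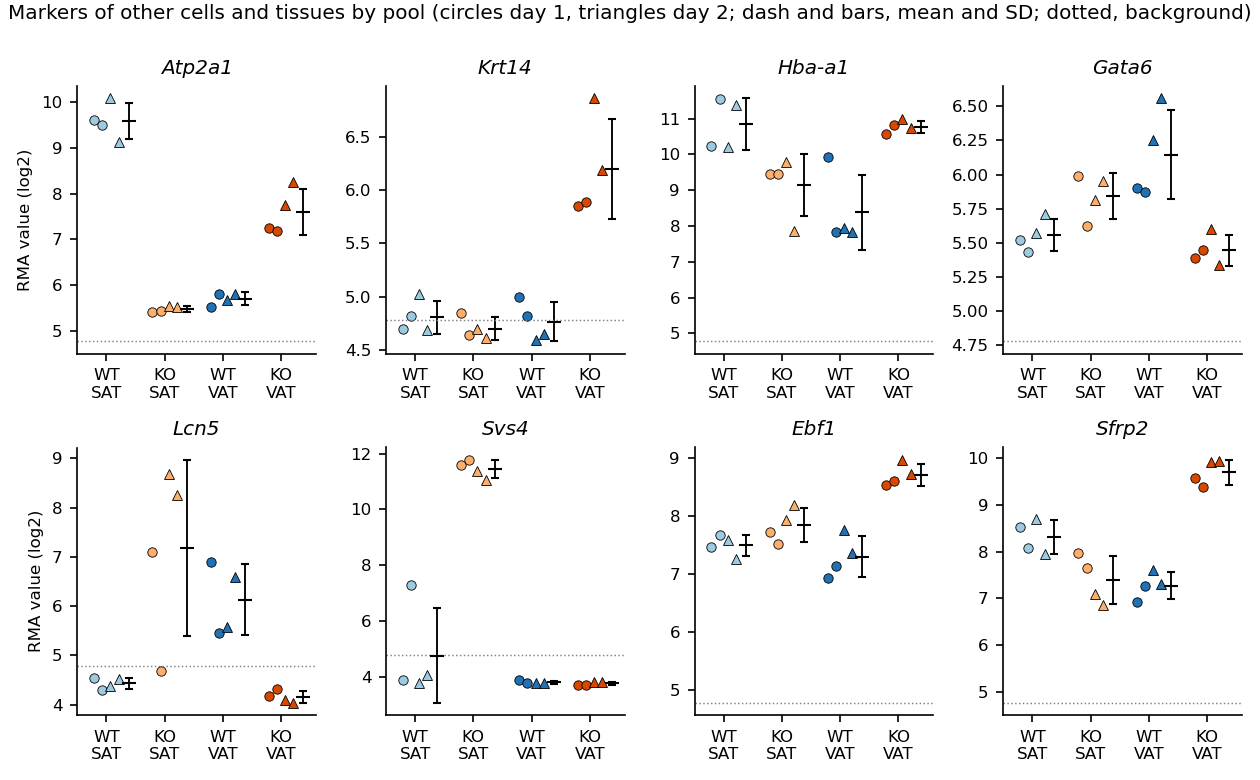
Log2 RMA values of 8 marker genes (panels, y axes) in each pool of the 4 groups (x axis); circles are day 1, triangles day 2, dashes with bars are means with SD (n = 4), and the dotted line is the background level of 4.78. Atp2a1 is highest in WT SAT and next in KO VAT, Krt14 is at 5.85 or more in KO VAT and at 5.02 or less elsewhere, Lcn5 is high in WT VAT and in 3 KO SAT pools, and Svs4 exceeds 11 in the KO SAT pools.

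Of 17 B cell genes 1 rose (5.88%, against 10.2% of all genes) and 0 fell (3 and 1 at an unadjusted p under 0.05). With the spread term 6 rose, with a median of 0.30, and on day 2 alone 5, with a median of 0.42 against -0.13 on day 1. Of all 17097 genes 781 rose with the spread term and 232 on day 2 alone. The 1 that rose in the fit without the spread term was Ebf1, a factor of B cells that is also expressed in fat precursors; it read 6.93, 7.14, 7.76 and 7.36 in WT and 8.54, 8.60, 8.97 and 8.72 in KO (1.41 ± 0.15, adjusted p = 4.28e-05). Of 16 T cell genes 0 passed by limma (3 at an unadjusted p under 0.05). Of 16 stromal niche factors 1 rose (6.25%, against 10.2% of all genes) and 3 fell (18.8%, against 5.76%). Il33, an alarmin of stromal cells, was under background in WT on average and at 6.06 to 6.52 in KO, at least 2.80-fold higher (adjusted p = 6.37e-05), while Tnfrsf11b and Cxcl12 fell as above. Of 15 collagens 2 rose (13.3%, near the 10.2% of all genes) and 0 fell (3 and 0 at an unadjusted p under 0.05): Col3a1, a fibrillar collagen (0.90 ± 0.19), and Col12a1 (0.58 ± 0.13). Neither passed on day 2 alone (0.55 and 0.44). The median of the 15 was 0.59 on day 1 and -0.03 on day 2.

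Genes that mark body position had 8 rises and 3 falls of 25 measured. Emx2 and Sfrp2 gave the largest, described above. Hoxc10, a homeobox gene of the lower body, read 6.41, 5.76, 4.94 and 5.67 in WT and 6.63, 6.13, 7.17 and 7.61 in KO (1.19 ± 0.30, adjusted p = 0.0177); it changed by 0.30 on day 1, where it did not pass, and by 2.08 on day 2, and its call ended without KO VAT pool 3 (1.11). Tbx15, a factor of subcutaneous preadipocytes, read 5.58, 5.21, 5.02 and 5.35 in WT VAT and 5.67 to 5.86 in KO VAT (0.46 ± 0.10), with SAT means of 5.68 in WT and 5.29 in KO, and passed on neither day alone. In both Tbx15 and Hoxc10 the SAT change was negative, at -0.39 and -0.93.

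The knockout effect in VAT was then set against that in SAT, on the 8 remaining arrays. The difference between the effects passed for 722 genes, or 4.22%, of which 359 were positive and 363 negative. Without WT VAT pool 1 the count was 1310. In SAT itself 6279 genes passed, or 36.7% of all genes. Of the 2724 genes that passed in VAT, 376 also passed in this difference. Of the 376, 330 had the opposite sign in SAT, and 176 passed in SAT in the opposite direction. Picking genes that passed both in VAT and in the difference favours opposite signs in SAT. Of the 2724, 1444 passed in both depots with the same sign.

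Akr1c18 had the largest positive difference, at 8.72 ± 0.21 (adjusted p = 1.58e-12), since it changed by 5.27 in VAT and -3.45 in SAT. Adh7 followed at 6.36 ± 0.22 (2.71 and -3.65), then Tnnc2 (6.29), Atp2a1 (5.99), Thbs2 (5.51), Acta1 (5.19) and Ccl8 (5.06). Igkj1, an immunoglobulin light chain segment, differed by 5.38 ± 1.26 (adjusted p = 0.0225) but did not pass in VAT itself (adjusted p = 0.0832). Its WT VAT and KO SAT means (4.12 and 4.68) lay under background, so this size is a fitted one. Its call ended on day 1 alone (1.82) and without WT SAT pool 3 (4.90), without pool 1 (5.10), 3 (4.92) or 4 (4.91) of KO SAT, and without either day 2 pool of KO VAT (5.00 and 5.12).

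The negative differences had 2 forms. Tnfrsf11b (-5.36 ± 0.41) and Slc7a2 (-5.26 ± 0.24) fell in VAT and rose in SAT, by 2.85 and 2.81, as did Lcn5 (-4.72 ± 0.82, not passing on day 1 alone at -3.40), whose KO VAT and WT SAT means lay under background. Svs4, Svs6, Svs3a and Svs2, proteins of seminal vesicle fluid, and Pate14, a secreted protein of the reproductive tract, were under background in both VAT groups and differed through SAT: Svs4 averaged 11.44 in KO SAT, 4.76 in WT SAT, 3.79 in WT VAT and 3.76 in KO VAT. The WT SAT means of these 5 lay under background as well, so the fitted differences are not measured sizes. Of 11 seminal vesicle genes, 10 were under background in KO VAT and 9 in WT VAT.

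**Figure D5:**
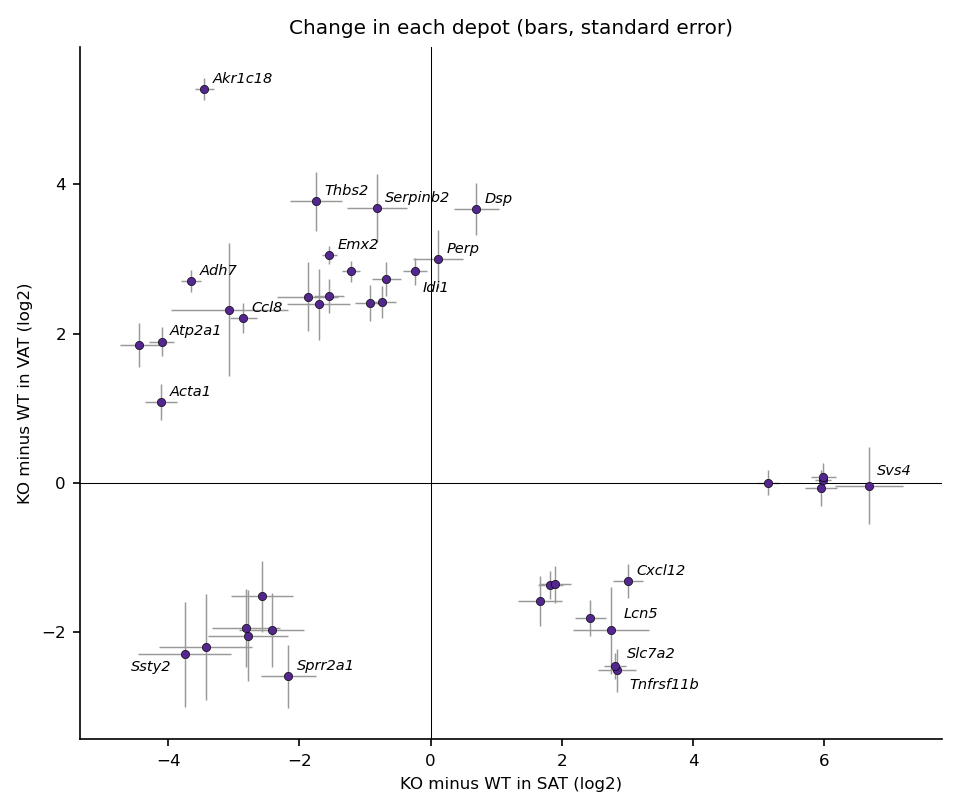
KO minus WT change in SAT (x axis, log2) and in VAT (y axis, log2) for the genes of largest change in VAT and of largest difference between the depots; bars are standard errors. Akr1c18, Adh7, Ccl8 and the muscle genes lie at upper left, Slc7a2, Tnfrsf11b and Cxcl12 at lower right, and Dsp, Perp and Idi1 rose in VAT with changes between -0.24 and 0.70 in SAT.

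The choice of probe set set the size of several changes. With the mean of all probe sets of a gene in place of the brightest, the genes named next still passed in the same direction, but their changes were smaller by over 1.5 times. Among the rises, Dsp was 1.74 and Prkg2 1.87, both fitted values from WT means under background, Hif1a was 0.69, Nfkbiz 0.94, Cxcl13 0.91, Elovl6 0.74, Mcm5 0.58, Col3a1 0.48, Mcm3 0.38 and Higd1a 0.28. Among the falls, Fbln5 was -0.78, Cp -0.57 and Gata6 -0.46. Array spread as a term also moved the counts of further lists by over 1.5 times. With it the arginine list had 2 rises and 2 falls, the positional genes 5 and 0, the skeletal muscle genes 4 and 0, the peritoneal macrophage genes 5 and 1, the alternative activation list 1 and 4, the collagens 1 and 1, and the macrophage identity list 0 and 6. The 1 rise and 6 falls among the metabolite receptors did not pass on day 2 alone.

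The effect in VAT also differed between the days for 138 genes, or 0.807%, with 73 higher and 65 lower on day 2. This count was the least stable: it was 1 with the spread term, 1 without KO VAT pool 1 or pool 4, 2 without KO VAT pool 3, 8 without WT VAT pool 1, WT VAT pool 4 or KO VAT pool 2, 60 without WT VAT pool 3 and 3565 without WT VAT pool 2. Krtap19-2, a hair keratin-associated protein, read 6.04, 5.81, 3.57 and 3.64 in WT VAT and 3.49 to 3.83 in KO VAT, a difference between the day effects of 2.39 ± 0.23 (adjusted p = 0.00275). Ccm2l, a regulator of endothelial signalling, read 4.17, 4.27, 6.49 and 6.43 in WT VAT and 4.14 to 4.61 in KO VAT (-2.08 ± 0.26, adjusted p = 0.0119). In both genes the KO pools were even and under background and the WT pools split by day, so these sizes are fitted ones. Usp14, a proteasome-linked deubiquitinase, read 3.63, 4.31, 6.78 and 6.73 in WT VAT and 5.97, 5.76, 6.96 and 6.44 in KO VAT. The split of the WT pools coincides with their array spread, and its part in these values was not tested beyond the spread term above.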

How the data were processed

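RNA from pooled CD11b-selected fat cells was measured on 16 Affymetrix arrays, 4 a group. The authors deposited log2 expression values; the submitters' processing notes name RMA and affy, whose versions are not given in the sources used here. RMA subtracts background and quantile-normalizes, so it compresses low signals. Precision is limited by how many arrays there are. Of 45141 probe sets, 104 were controls, 28898 had 1 gene, 551 several and 15588 none in the platform annotation; 28689 gene IDs matched the GRCm38.p6 table. The probe set of highest mean over the 16 arrays stood for each of 17097 genes, and 7180 genes had more than 1.

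Changes were fitted in limma 3.58.1 (R 4.3.3, lmFit and eBayes) on all 16 arrays, with 4 group means and day as a term (11 residual degrees of freedom), and p-values were adjusted by Benjamini-Hochberg over all genes. The difference between depots came from the same fit and that between days from 8 group-by-day means. Array spread, the interquartile range, was tested by exact permutation. On simulated data with 200 of 17097 genes changed, 52% of changes of 0.5 and 90% of changes of 1 on the log2 scale were recovered, and 8 of 150 calls were false. The simulated noise was normal, independent between genes and without differences in array spread. These rates therefore check the fit and need not hold for the real arrays.

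Genes named are up to 15 rises and 15 falls of largest size among passing genes whose sign agreed on the 2 days (unnamed gene models left out), list members that passed or had the smallest p, up to 8 of each sign in the depot and day comparisons, and 10 fixed genes. Members and lists were chosen with earlier results of these data known, and the weight given to calls that held without each VAT array was chosen after values were seen. Same-numbered pools deviated together in VAT (correlations 0.18, 0.52, 0.51 and 0.25), but not once day means were removed (-0.31, -0.31, -0.1 and -0.1). Alternatives tried were no day term, a block for pool number, each day alone, VAT arrays alone, no genes of low mean, the mean of all probe sets, centring, quantile normalization, array weights, array spread as a term, a trended robust prior, and leaving out each array.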

Additional observations from a re-analysis of the deposited data

Results flagged for a closer look

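4 single arrays stood apart from the other 3 of their group for a named gene. Both VAT groups were searched for each of the 30 genes of largest change and the 10 fixed genes. Chance gives about 1 such array in 20 groups, and so about as many as were found. Hbb-b2 was 8.27 in KO VAT pool 1, Hba-a1 was 9.94 in WT VAT pool 1, Kif21a was 4.63 in WT VAT pool 1 and Sprr2a1 was 6.80 in WT VAT pool 4. Both globin genes and Kif21a passed without each VAT array, as did Sprr2a1.

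For 16 genes the knockout effect in VAT differed from that in SAT (log2, VAT minus SAT, interaction term of the fit). For Igkj1, Lcn5, Pate14 and the 4 Svs genes at least 2 of the 4 group means lay under background, so the fitted value is not a measured size. The positive differences were 8.72 for Akr1c18, 6.36 for Adh7, 6.29 for Tnnc2, 5.99 for Atp2a1, 5.51 for Thbs2, 5.38 for Igkj1, 5.19 for Acta1 and 5.06 for Ccl8. The negative ones were -6.71 for Svs4, -6.02 for Svs6, -5.95 for Svs3a, -5.91 for Svs2, -5.36 for Tnfrsf11b, -5.26 for Slc7a2, -5.14 for Pate14 and -4.72 for Lcn5.

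For 16 genes the effect in VAT differed between the days (day 2 minus day 1). Krtap19-2, Pramel34, Krtap6-2, Prss32, Obox2 and Ccm2l had a KO VAT mean under background, so their values are fitted and not measured sizes. It was 2.39 for Krtap19-2, 2.24 for Pramel34, 2.04 for BC040756, 2.0 for Ugt3a1, 1.99 for Krtap6-2, 1.93 for Prss32, 1.88 for Fpr2 and 1.85 for Obox2. It was -2.08 for Ccm2l, -2.0 for Smoc2, -1.95 for Usp14, -1.78 for Plscr2, -1.73 for Mex3c, -1.65 for Mir100hg, -1.52 for Snhg6 and -1.51 for Tomm40l.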

How the results depend on the processing

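The count of 2724 genes in VAT became 986 without a day term, 5376 on day 1 alone, 331 on day 2 alone, 1238 with the VAT arrays alone, and 1115 to 4007 when 1 VAT array was left out. With pool number as a block it was 2150, and 38 of 219 named calls were lost, although the labels do not say that same-numbered pools were paired. The depot count of 722 became 455 without a day term, 330 on day 1, 1904 on day 2, 1209 with array weights, 1694 with array spread as a term, and 546 to 1310 with 1 array left out. The day count of 138 became 1 with the spread term and 1 to 3565 with 1 array left out. The causes were not tested. Differences that had not passed in VAT changed sign as follows. Adgre1 was 0.053 on day 2. Arg1 was -0.072 on day 2, -0.18 after quantile normalization, -0.22 with the spread term, and -0.0758 (without WT VAT pool 3) to 0.385 (without WT VAT pool 4) with 1 array left out. Chil3 was 0.024 after centring and 0.012 after quantile normalization. Itgam was 0.079 on day 1, and -0.359 (without WT VAT pool 1) to 0.0384 (without WT VAT pool 4) with 1 array left out. Retnla was -0.022 after quantile normalization. Sucnr1 was -0.021 on day 1, and -0.0302 (without WT VAT pool 4) to 0.0352 (without KO VAT pool 4) with 1 array left out. Of the 223 named genes that passed in VAT, 219 were followed through the alternatives. At most 123 held without each of the 8 VAT arrays, and at most 62 held in every alternative run. Both counts include Ugt3a1, Ccm2l, Mex3c and Mir100hg, named for the day comparison, whose VAT calls were not followed. Signal near background limits Sucnr1, Chil3 and the other genes for which only a bound is given.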
